A study of Mus musculus with 5 samples.

Results

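The comparison described here sets the RNA-seq library of H3.3 knockdown embryos given H3.2 mRNA against the library of untreated embryos. These are 2 of the 5 libraries of the series, with 1 library on each side, and they were chosen by their labels. The title of the first library names H3.3 KD + H3.2 mRNA, and that of the second only NT embryos. The treatment tag of the first names H3.3mRNA where its title names H3.2 mRNA, and the title was followed. Both libraries come from mouse embryos of the B6D2F1 strain at the 4-cell stage, produced by somatic cell nuclear transfer (SCNT, or NT). The untreated embryos carry the treatment tag none. The donor cell, the number of embryos pooled, and the agent and extent of the knockdown are not stated in any source at hand. The other 3 libraries, used as a frame, are knockdown embryos given H3.3 mRNA, knockdown embryos, and embryos treated with luciferase. With 1 library a side there was no replicate and no test, and each difference below is between 2 libraries and not between 2 tested conditions.

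In nuclear transfer, oocyte factors act on the chromatin of a transplanted nucleus, and genes silent in the donor cell have to be switched on while donor programmes are shut down. Histone H3.3 is loaded into chromatin at any time of the cell cycle, largely by the HIRA complex at active genes and by DAXX and ATRX at heterochromatin. H3.2 differs from it by a few residues and is deposited behind the replication fork by the CAF-1 complex. An H3.2 add-back supplies histone H3 to knockdown embryos without restoring the H3.3 variant. At the 4-cell stage a mouse embryo has activated its own genome and has cleared much of the oocyte's stored mRNA, and the genes of its first lineages are starting to appear.

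Levels are given in FPKM, the authors' estimate of expression per length of transcript and per read mapped. Differences are given as log2(FPKM + 1) with H3.2 mRNA minus log2(FPKM + 1) in untreated embryos, which understates the change of weakly expressed genes. Genes were called where this difference reached 2 in size, which is 4-fold. The counts cover the 13144 genes with a mean of 1 FPKM or more over the 5 libraries. Upper-quartile scaling would move the median of all genes to 0.38, and list medians below can be read against that shift. A 0 means that a gene was listed at 0. In bulk embryos, fewer cells that express a gene and less RNA of it per cell cannot be told apart.

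The embryos given H3.2 mRNA differed from untreated embryos by at least 4-fold at 4842 genes, or 36.8% of those examined. More genes were higher (3170, or 24.1%) than lower (1672, or 12.7%). The median difference over all genes was 0.00, and the middle 50% of genes lay between -1.04 and 1.90. Of the 3170 higher genes, 1808 were listed at 0 in untreated embryos, and of the 1672 lower genes 454 were listed at 0 with H3.2 mRNA. Among the 9678 genes above 0 in both libraries, 1362 were higher and 1218 lower, with a median difference of -0.18. Higher genes made up 65.5% of the calls, and 55.5% after quantile normalization or 55.1% with the trend on transcript length removed. In all, 12261 of the 22026 genes listed were above 0 with H3.2 mRNA, against 10443 in untreated embryos.

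**Figure D1:**
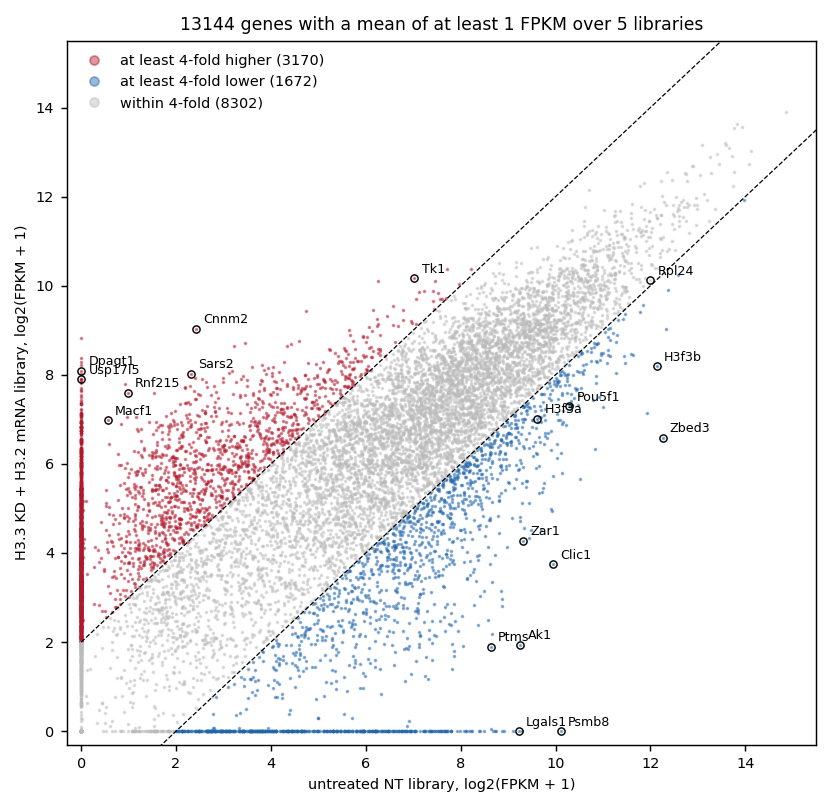
Level of each gene in the H3.3 KD + H3.2 mRNA library (vertical axis) and in the untreated NT library (horizontal axis), both as log2(FPKM + 1), for 13144 genes. Dashed lines mark 4-fold, red and blue points lie beyond them (3170 higher, 1672 lower), and the column of points at the left edge holds genes listed at 0 in untreated embryos.

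The direction of the difference went with the level of the gene. Of the 2441 genes with a mean of 5 to below 20 FPKM, 43.1% were higher and 14.3% lower with H3.2 mRNA. Of the 1710 genes from 300 to below 1000 FPKM, 2.51% were higher and 8.42% lower. Among the 658 genes at 1000 FPKM or more, 3 were higher and 32 lower, and their median difference was -0.61. Weakly expressed genes were thus more often high, and abundant transcripts more often low, with H3.2 mRNA. The summed FPKM of all genes was 2467000 with H3.2 mRNA, against 3555710 in untreated embryos. The part of these library-wide values in the single-gene differences below was not tested.

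**Figure D2:**
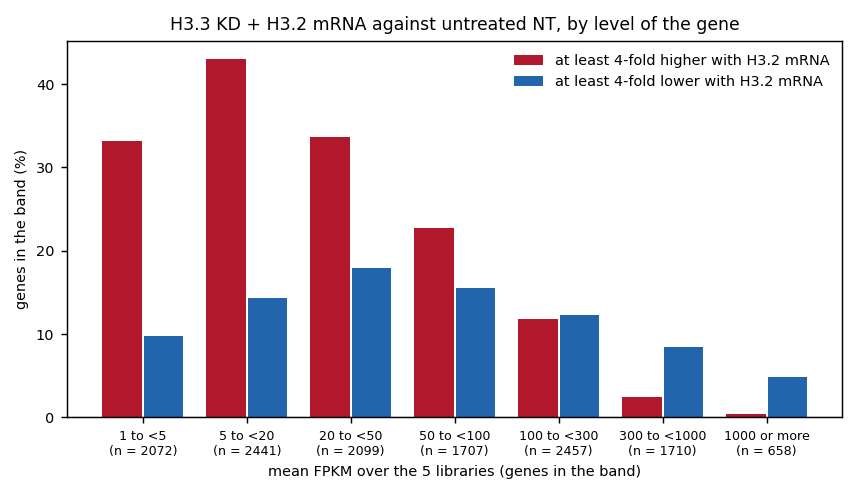
Share of genes (%) at least 4-fold higher (red) or lower (blue) with H3.2 mRNA than in untreated embryos, by band of mean FPKM over the 5 libraries, with the number of genes in each band under the axis. The red bars stand at 43.1% for genes of 5 to below 20 FPKM and at 0.456% for genes of 1000 FPKM or more, where the blue bar is at 4.86%.

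The source names also divide the compared libraries, SCNT for the H3.2 mRNA library and NT for the untreated one, so that this difference and the treatment cannot be told apart. The knockdown library and the H3.3 mRNA library carry the NT name as well. Luciferase embryos share the SCNT name with the H3.2 mRNA library. Against them the H3.2 mRNA library was at least 4-fold higher at 1369 genes (10.4%) and lower at 1293 (9.84%), or 2662 genes (20.3%). Luciferase embryos in turn differed from untreated embryos by 4-fold upward at 3090 genes (23.5%) and downward at 1759 (13.4%). That is 4849 genes (36.9%), against which stand the 4842 genes of the H3.2 mRNA library, and the comparisons share the untreated library. The values of the other libraries are therefore given beside those compared.

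The genes that encode H3.3 were low in the H3.2 mRNA library. H3f3a stood at 129 FPKM with H3.2 mRNA, 95.5 FPKM with H3.3 mRNA, 128 FPKM in the knockdown and 3503 FPKM with luciferase, against 783 FPKM in untreated embryos. H3f3b stood at 292 FPKM with H3.2 mRNA, 371 FPKM with H3.3 mRNA, 535 FPKM in the knockdown and 2230.4 FPKM with luciferase, against 4484 FPKM in untreated embryos. Both genes were low in all 3 knockdown libraries and at or above 783 FPKM in both controls. How many of all genes divide the libraries in this way was not counted. The sum of both genes with H3.2 mRNA was 420.1 FPKM, or 7.98% of the 5266 FPKM in untreated embryos. The log2 differences were -2.60 for H3f3a and -3.94 for H3f3b. Near-identical pseudogene copies make the division of reads between the genes uncertain.

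Endogenous genes for replication-coupled H3 were weakly expressed or listed at 0, with no value above 16.6 FPKM (Hist1h3a in untreated embryos). Of 11 such genes in the files, 7 were listed at 0 with H3.2 mRNA, against 2 in untreated embryos, and 3 passed the filter. Hist1h3g, an H3.1 gene, stood at 12.1 FPKM with H3.2 mRNA, 0 FPKM with H3.3 mRNA, 0 FPKM in the knockdown and 0.3 FPKM with luciferase, against 3.06 FPKM in untreated embryos. Hist1h3f, which encodes H3.2, stood at 0.05 FPKM with H3.2 mRNA, 0 FPKM with H3.3 mRNA, 0 FPKM in the knockdown and 0 FPKM with luciferase, against 5.87 FPKM in untreated embryos. Hist1h3a, another H3.1 gene, stood at 2.76 FPKM with H3.2 mRNA, 0 FPKM with H3.3 mRNA, 0 FPKM in the knockdown and 0 FPKM with luciferase, against 16.6 FPKM in untreated embryos. No H3.2 gene was high in the library labelled as given H3.2 mRNA, so that these gene values do not show the added mRNA, and whether it would be counted under these gene models was not tested. Transcripts of this class are mostly not polyadenylated, and no source at hand states how RNA was selected. Of 55 further replication-coupled histone genes in the files 14 passed the filter, and of these 1 was higher (7.14%, against 24.1% of all genes) and 6 lower (42.9%, against 12.7%). Some of the 14, such as Hist3h2ba and Hist1h4c, passed through the untreated library alone, and the median over all 55 was 0. Hist4h4, an H4 gene and the most changed of them, stood at 0 FPKM with H3.2 mRNA, 0 FPKM with H3.3 mRNA, 0 FPKM in the knockdown and 50.9 FPKM with luciferase, against 25.6 FPKM in untreated embryos, and its value with luciferase was the highest of the 14 in any library.

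Chaperones that deposit H3 were mostly close in level between the compared libraries. Of the 20 measured, 2 were higher (10%, against 24.1% of all genes) and 0 lower (against 12.7%), with a median difference of 0.19 that was -0.13 with the length trend removed. Chaf1a, the large subunit of the CAF-1 complex that deposits replication-coupled H3, stood at 263 FPKM with H3.2 mRNA, 408 FPKM with H3.3 mRNA, 208 FPKM in the knockdown and 158 FPKM with luciferase, against 62.4 FPKM in untreated embryos. The H3.2 mRNA library was thus 2.06 higher on the log2 scale than untreated embryos at Chaf1a. Atrx, which acts with DAXX in placing H3.3 at heterochromatin, stood at 26.3 FPKM with H3.2 mRNA, 43.8 FPKM with H3.3 mRNA, 2.76 FPKM in the knockdown and 41.9 FPKM with luciferase, against 2.44 FPKM in untreated embryos. Chaf1a was lowest in untreated embryos, while Atrx was low in untreated and in knockdown embryos. The middle CAF-1 subunit gene Chaf1b was close between the compared libraries, at 472 FPKM with H3.2 mRNA and 488 FPKM untreated.

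The HIRA branch showed smaller differences. Hira itself stood at 162 FPKM with H3.2 mRNA, against 93.4 FPKM in untreated embryos, its partner Ubn1 at 70.8 FPKM with H3.2 mRNA and 38.2 FPKM untreated, and Cabin1, another subunit, at 51.5 FPKM with H3.2 mRNA and 131 FPKM untreated. Daxx was at 131 FPKM with H3.2 mRNA, against 306 FPKM in untreated embryos. Rbbp7, a histone-binding subunit and the second most abundant chaperone gene, stood at 1134 FPKM with H3.2 mRNA, against 3460.0 FPKM in untreated embryos, and Nasp, which shelters soluble H3 and is the most abundant, at 2552 FPKM with H3.2 mRNA and 2143 FPKM untreated. Asf1a and Asf1b, which hand H3 to both branches, stood at 65.8 FPKM with H3.2 mRNA and 60.5 FPKM untreated and at 479.6 FPKM with H3.2 mRNA and 386 FPKM untreated. Hjurp, which deposits the centromeric variant CENP-A, stood at 335 FPKM with H3.2 mRNA and 194 FPKM untreated. None of these 9 genes passed 4-fold. The remaining chaperones lay between -1.94 for Rbbp4, a histone-binding subunit shared by several complexes, and 1.25 for Mcm2, a helicase subunit that binds H3.

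Among other histone variants, 1 of 9 measured was higher and 1 lower (11.1% each, against 24.1% and 12.7% of all genes). H2afy, which encodes macroH2A1, a variant tied to silenced chromatin, stood at 29.3 FPKM with H3.2 mRNA, 50 FPKM with H3.3 mRNA, 0 FPKM in the knockdown and 129 FPKM with luciferase, against 0 FPKM in untreated embryos. It was thus listed at 0 in untreated embryos and in the knockdown, and above 29 FPKM in the other 3 libraries. H1foo, the linker histone of oocytes, went the other way, with 179.6 FPKM with H3.2 mRNA, 426 FPKM with H3.3 mRNA, 351 FPKM in the knockdown and 74.8 FPKM with luciferase, against 1925 FPKM in untreated embryos.

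Single genes were named by rank of their difference, in the classes above 0 in both libraries, at 0 in either, and abundant. The rank uses the values of the compared libraries, so an extreme untreated value at a named gene is partly set by the choice. The first class was led by Cnnm2. Cnnm2, which takes part in magnesium transport, stood at 523 FPKM with H3.2 mRNA and between 164 and 324 FPKM in the other 3 libraries, against 4.33 FPKM in untreated embryos, a log2 difference of 6.62. Macf1, a giant linker of microtubules and actin, stood at 125 FPKM with H3.2 mRNA and between 14.2 and 157 FPKM in the other 3 libraries, against 0.47 FPKM in untreated embryos. Smg1, the kinase that starts nonsense-mediated mRNA decay, stood at 193 FPKM with H3.2 mRNA and between 19.9 and 177 FPKM in the other 3 libraries, against 1.89 FPKM in untreated embryos. The untreated library was the lowest of the 5 at each of these genes.

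Sars2, the mitochondrial seryl-tRNA synthetase, stood at 259.9 FPKM with H3.2 mRNA and between 226 and 366 FPKM in the other 3 libraries, against 3.98 FPKM in untreated embryos. Ap4m1, a subunit of the AP-4 sorting adaptor, stood at 117 FPKM with H3.2 mRNA and between 14.7 and 34.6 FPKM in the other 3 libraries, against 0.8 FPKM in untreated embryos. Other genes of this rank were Rnf215, Tbc1d12, Zfp746, Sdr39u1, Slc39a11 and Csnk1g1, with log2 differences from 5.51 to 6.62. The genes named here were at 4.33 FPKM or less in untreated embryos, and the untreated library was the lowest of the 5 at each, which the rank favours. The lowest value in another library was 5.77 FPKM for Rnf215 with luciferase.

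Genes listed at 0 in untreated embryos and highest with H3.2 mRNA began with Dpagt1 and Slc10a6. Dpagt1, the enzyme that starts N-glycan assembly, stood at 271 FPKM with H3.2 mRNA and between 141 and 287 FPKM in the other 3 libraries, against 0 FPKM in untreated embryos. Slc29a2, a nucleoside transporter, stood at 227 FPKM with H3.2 mRNA and between 43.7 and 119 FPKM in the other 3 libraries, against 0 FPKM in untreated embryos. Usp17l5, a member of a multicopy deubiquitinase family, stood at 237 FPKM with H3.2 mRNA and between 11.4 and 33.4 FPKM in the other 3 libraries, against 0 FPKM in untreated embryos. Usp17l5 was therefore several times higher with H3.2 mRNA than in any other library, whereas Dpagt1 reached as high a level elsewhere. Reads of Usp17l5 can be shared with its close copies. Slc10a6, Slc25a41 and Pdgfrl were at 0 in untreated embryos as well and stood between 236 and 259.6 FPKM with H3.2 mRNA.

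Among genes lower with H3.2 mRNA and above 0 in both libraries, Ak1, Ptms and Clic1 stood near the head of the rank. Ak1, an adenylate kinase, stood at 2.85 FPKM with H3.2 mRNA and between 20.8 and 37.3 FPKM in the other 3 libraries, against 610.0 FPKM in untreated embryos, a log2 difference of -7.31. Ptms, which encodes parathymosin, stood at 2.72 FPKM with H3.2 mRNA and between 7.46 and 38.1 FPKM in the other 3 libraries, against 397 FPKM in untreated embryos. Clic1, a chloride intracellular channel gene, stood at 12.4 FPKM with H3.2 mRNA and between 30.5 and 249 FPKM in the other 3 libraries, against 988 FPKM in untreated embryos. The untreated library was the highest at all 3 genes and the H3.2 mRNA library the lowest.

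Efhd2, an EF-hand calcium-binding protein gene, stood at 6.01 FPKM with H3.2 mRNA and between 47.7 and 62.9 FPKM in the other 3 libraries, against 469.7 FPKM in untreated embryos. Trmt2b, a tRNA methyltransferase gene, stood at 2.76 FPKM with H3.2 mRNA and between 0 and 24.4 FPKM in the other 3 libraries, against 265 FPKM in untreated embryos. Tmem25, Dusp28, Art4 and Wdr25 were also named by rank, with log2 differences from -6.48 to -6.07. The ranks further held Raver1-fdx1l, Apoo-ps and Rps23, at 0.18 FPKM or less with H3.2 mRNA. Raver1-fdx1l is a read-through locus, Apoo-ps a pseudogene and Rps23 a ribosomal protein gene with near-identical copies, so their reads may be split with other loci. Luciferase embryos were also under 1 FPKM at those 3 loci.

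**Figure D3:**
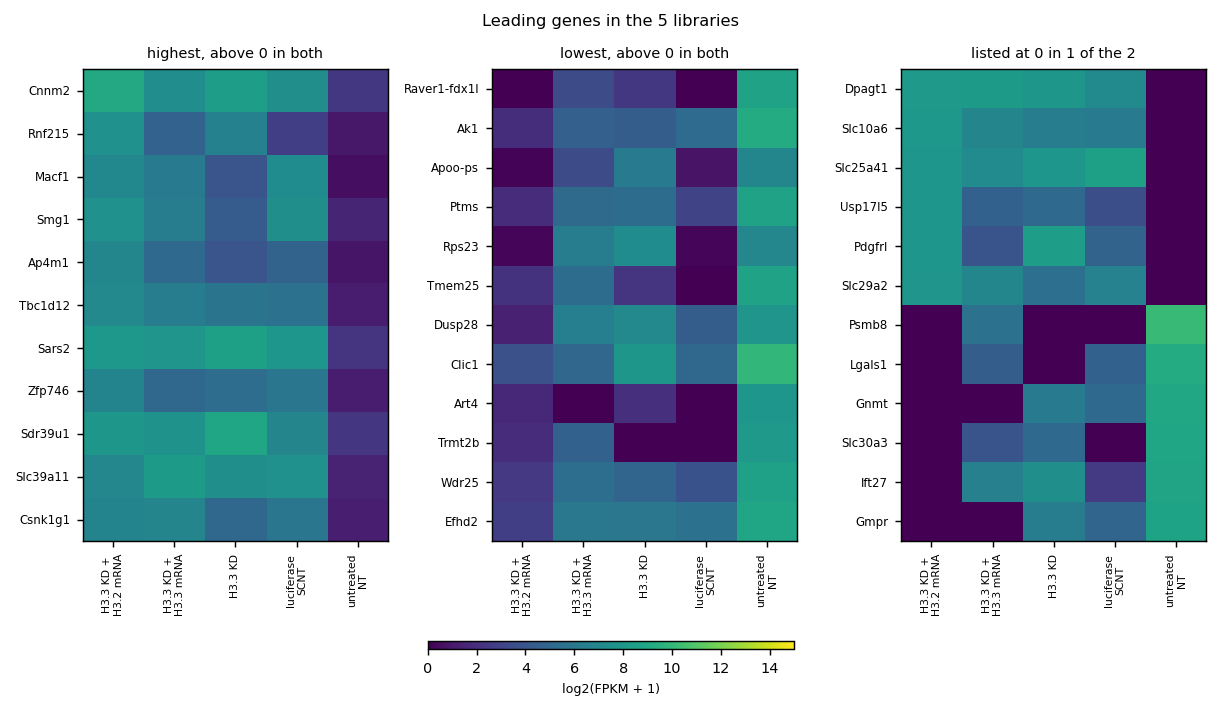
Level, as log2(FPKM + 1) by colour, of genes with the highest and the 12 with the lowest differences among those above 0 in both compared libraries and of 12 genes listed at 0 in either, with the 5 libraries as columns from H3.3 KD + H3.2 mRNA at the left to untreated NT at the right. In the untreated column Cnnm2 is at 4.33 FPKM, below its value in every other library, and Clic1 at 988 FPKM, above its value in every other library.

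Genes listed at 0 with H3.2 mRNA and highest in untreated embryos began with Psmb8, a catalytic subunit of the immunoproteasome. Psmb8 stood at 0 FPKM with H3.2 mRNA, 48.8 FPKM with H3.3 mRNA, 0 FPKM in the knockdown and 0 FPKM with luciferase, against 1107 FPKM in untreated embryos. Lgals1, which encodes galectin-1, stood at 0 FPKM with H3.2 mRNA, 20.5 FPKM with H3.3 mRNA, 0 FPKM in the knockdown and 23.9 FPKM with luciferase, against 596 FPKM in untreated embryos. Gnmt, a glycine methyltransferase that draws on S-adenosylmethionine, stood at 0 FPKM with H3.2 mRNA, 0 FPKM with H3.3 mRNA, 68.6 FPKM in the knockdown and 34.6 FPKM with luciferase, against 482 FPKM in untreated embryos. At each of these genes the untreated library was more than 4-fold above every other library, which the rank favours. Slc30a3, Ift27 and Gmpr, also at 0 with H3.2 mRNA, stood between 409 and 469 FPKM in untreated embryos.

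Among abundant transcripts the largest rises were in Tk1, Zfp821 and Aimp2. Tk1, the thymidine kinase of the nucleotide salvage pathway, stood at 1145 FPKM with H3.2 mRNA, 645 FPKM with H3.3 mRNA, 1339 FPKM in the knockdown and 2880.4 FPKM with luciferase, against 129 FPKM in untreated embryos. Aimp2, a scaffold of the multi-synthetase complex, stood at 936 FPKM with H3.2 mRNA and between 1072 and 2151 FPKM in the other 3 libraries, against 149 FPKM in untreated embryos. Wdr45 and Pcyt2 followed with log2 differences of 1.70 and 1.57, short of 4-fold. The untreated library was again the lowest of the 5 at Tk1, Zfp821 and Aimp2, which the rank favours.

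The abundant transcripts that were lowest relative to untreated embryos included the H3.3 target. Zbed3, an axin-interacting zinc finger gene, stood at 95.3 FPKM with H3.2 mRNA, 292 FPKM with H3.3 mRNA, 427 FPKM in the knockdown and 43 FPKM with luciferase, against 4895 FPKM in untreated embryos. Nupr1, a stress-induced nuclear protein gene, stood at 521 FPKM with H3.2 mRNA, 785 FPKM with H3.3 mRNA, 2313 FPKM in the knockdown and 719 FPKM with luciferase, against 5154 FPKM in untreated embryos. Sqstm1, the autophagy receptor p62, stood at 352 FPKM with H3.2 mRNA, 604 FPKM with H3.3 mRNA, 714 FPKM in the knockdown and 494 FPKM with luciferase, against 3097 FPKM in untreated embryos. With luciferase, Zbed3 was lower still than with H3.2 mRNA, whereas H3f3b and Dppa5a stood at 2230.4 and 2030.0 FPKM there.

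In the lists that follow, the members with the largest differences are named by rule, and others, such as those that differed little, were named after their values were seen. Pluripotency factors were divided. Of 28 measured, 4 were higher (14.3%, against 24.1% of all genes) and 6 lower (21.4%, against 12.7%), with 17 of 28 below 0 and a median difference of -0.57. Pou5f1, the POU factor OCT4, stood at 157 FPKM with H3.2 mRNA, 391 FPKM with H3.3 mRNA, 479 FPKM in the knockdown and 849 FPKM with luciferase, against 1249.7 FPKM in untreated embryos. Nanog, a homeobox factor of the inner cell mass, stood at 0.99 FPKM with H3.2 mRNA, 9.59 FPKM with H3.3 mRNA, 0 FPKM in the knockdown and 52.1 FPKM with luciferase, against 21.8 FPKM in untreated embryos. Tbx3, a T-box factor of naive pluripotency, stood at 3.09 FPKM with H3.2 mRNA, 66.9 FPKM with H3.3 mRNA, 1.34 FPKM in the knockdown and 120.3 FPKM with luciferase, against 72.7 FPKM in untreated embryos. All 3 were lower with H3.2 mRNA than in either control, as they were in the knockdown and with H3.3 mRNA.

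Prdm14, a zinc finger protein that protects naive pluripotency, stood at 0 FPKM with H3.2 mRNA, 24.8 FPKM with H3.3 mRNA, 0 FPKM in the knockdown and 12.9 FPKM with luciferase, against 40.3 FPKM in untreated embryos. Myc stood at 9.93 FPKM with H3.2 mRNA, against 175 FPKM in untreated embryos, and Dppa5a, an RNA-binding protein gene of early embryos, at 349 FPKM with H3.2 mRNA, against 3199 FPKM in untreated embryos. The higher members were Tet1, Mycn, Esrrb and Gdf3. Tet1, which oxidises 5-methylcytosine, stood at 45.4 FPKM with H3.2 mRNA, 20.5 FPKM with H3.3 mRNA, 3.7 FPKM in the knockdown and 35.3 FPKM with luciferase, against 0 FPKM in untreated embryos. Esrrb, an orphan nuclear receptor of the pluripotency network, stood at 32.5 FPKM with H3.2 mRNA, 13.9 FPKM with H3.3 mRNA, 0 FPKM in the knockdown and 66.5 FPKM with luciferase, against 1.29 FPKM in untreated embryos. Tet1 and Esrrb were near 0 in untreated embryos and in the knockdown and higher in the other 3 libraries. Abundant early embryo genes such as Dppa2, Dppa4, Fbxo15 and Klf17 differed by less than 2-fold, at 1153 FPKM with H3.2 mRNA and 1302 FPKM untreated, 1725 FPKM with H3.2 mRNA and 3311 FPKM untreated, 6813 FPKM with H3.2 mRNA and 11157 FPKM untreated and 893 FPKM with H3.2 mRNA and 776 FPKM untreated.

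Regulators and early markers of the extraembryonic lineages, trophectoderm and primitive endoderm, went both ways. Of 22 measured, 5 were higher (22.7%, near the 24.1% of all genes) and 6 lower (27.3%, against 12.7%), with a median of -0.17 that was 0.22 under upper-quartile scaling. Sparc, a matrix glycoprotein made by parietal endoderm, stood at 21.7 FPKM with H3.2 mRNA, 53.1 FPKM with H3.3 mRNA, 11.1 FPKM in the knockdown and 281 FPKM with luciferase, against 719 FPKM in untreated embryos. The keratin gene Krt18 stood at 13.1 FPKM with H3.2 mRNA, 0 FPKM with H3.3 mRNA, 48.7 FPKM in the knockdown and 435 FPKM with luciferase, against 290.4 FPKM in untreated embryos, and its pairing partner Krt8 at 44.8 FPKM with H3.2 mRNA, 22.5 FPKM with H3.3 mRNA, 0 FPKM in the knockdown and 836 FPKM with luciferase, against 184 FPKM in untreated embryos. Tead4, the factor that switches on the trophectoderm programme, stood at 154 FPKM with H3.2 mRNA, 814 FPKM with H3.3 mRNA, 207 FPKM in the knockdown and 528 FPKM with luciferase, against 645 FPKM in untreated embryos. These 4 genes were lower with H3.2 mRNA than in either control.

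The higher members included Elf3, an epithelial ETS factor, with 118 FPKM with H3.2 mRNA, 31.6 FPKM with H3.3 mRNA, 91.6 FPKM in the knockdown and 582 FPKM with luciferase, against 22.9 FPKM in untreated embryos. Id2, an inhibitor of bHLH factors found in trophectoderm, stood at 24.6 FPKM with H3.2 mRNA, against 3.63 FPKM in untreated embryos, and Fgfr1 at 36.1 FPKM with H3.2 mRNA, against 6.08 FPKM in untreated embryos. Both GATA factors of the primitive endoderm stayed short of 4-fold, with Gata4 at 184 FPKM with H3.2 mRNA and 86.4 FPKM untreated and Gata6 at 108 FPKM with H3.2 mRNA and 47 FPKM untreated. At Elf3, Gata4 and Gata6 the luciferase library was the highest of the 5 or next to it. The list was 4-fold lower than in luciferase embryos at 12 members of 22 and higher at 2, where 9.84% of all genes were lower and 10.4% higher.

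Genes for epithelial junctions and for fluid transport into the blastocyst cavity were more often lower. Of 28 measured, 2 were higher (7.14%, against 24.1% of all genes) and 8 lower (28.6%, against 12.7%), with a median of -0.72. Cldn6, a claudin of early epithelia, stood at 86 FPKM with H3.2 mRNA, 201 FPKM with H3.3 mRNA, 95.9 FPKM in the knockdown and 143 FPKM with luciferase, against 864 FPKM in untreated embryos. Pkp2, a desmosomal plakophilin, stood at 12.9 FPKM with H3.2 mRNA, 22.3 FPKM with H3.3 mRNA, 2.93 FPKM in the knockdown and 61.5 FPKM with luciferase, against 226 FPKM in untreated embryos. The water channel gene Aqp3 stood at 57 FPKM with H3.2 mRNA, 59.4 FPKM with H3.3 mRNA, 31.1 FPKM in the knockdown and 341 FPKM with luciferase, against 247 FPKM in untreated embryos. Aqp3 was high in both controls and low in all 3 knockdown libraries, while Cldn6 in untreated embryos was more than 4-fold above every other library. Krt7 was listed at 0 with H3.2 mRNA and with H3.3 mRNA, against 43.1 FPKM in untreated embryos. It stood at 34.5 FPKM with luciferase and was highest in the knockdown, at 103 FPKM. E-cadherin (Cdh1) differed little, at 100.4 FPKM with H3.2 mRNA, against 65.8 FPKM in untreated embryos, and beta-catenin (Ctnnb1) stood at 410.0 FPKM with H3.2 mRNA and 248 FPKM untreated.

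**Figure D4:**
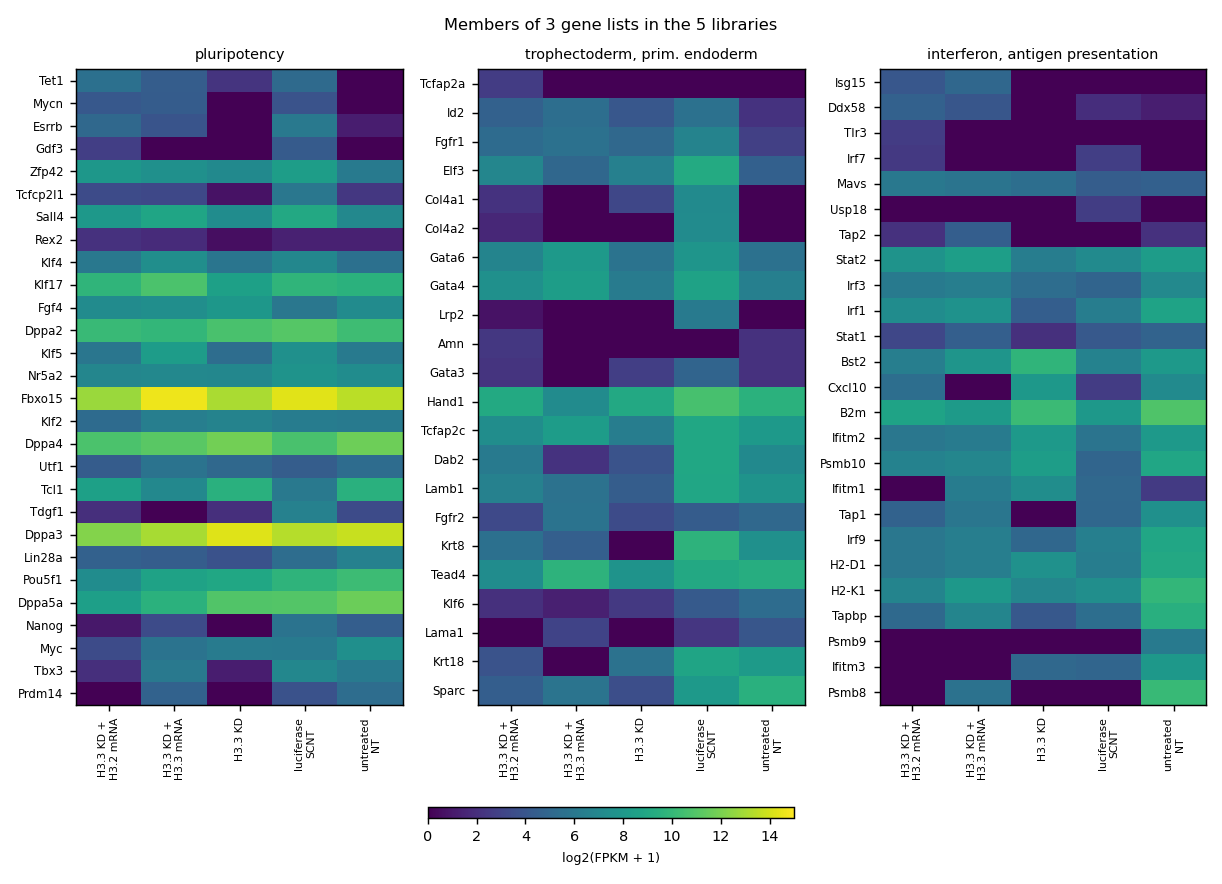
Level, as log2(FPKM + 1) by colour, of the 28 pluripotency, 22 trophectoderm and primitive endoderm, and 25 interferon and antigen presentation genes past the filter, ordered from the highest difference at the top to the lowest at the bottom. The columns run from H3.3 KD + H3.2 mRNA at the left to untreated NT at the right, and Psmb8, Ifitm3 and Psmb9 at the foot of the third panel are listed at 0 with H3.2 mRNA.

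Genes of the 2-cell wave of genome activation had a median of -0.08 that was 0.33 under upper-quartile scaling, with 6 of 26 higher (23.1%) and 3 lower (11.5%), near the 24.1% and 12.7% of all genes. Tdpoz2, a member of a cluster of BTB-domain genes, stood at 124 FPKM with H3.2 mRNA, 81.8 FPKM with H3.3 mRNA, 93.1 FPKM in the knockdown and 79.2 FPKM with luciferase, against 0 FPKM in untreated embryos. Spz1, a basic helix-loop-helix factor gene, stood at 607 FPKM with H3.2 mRNA, 504 FPKM with H3.3 mRNA, 251 FPKM in the knockdown and 178 FPKM with luciferase, against 74.6 FPKM in untreated embryos. Tdpoz1 and Tdpoz4 stood at 38.2 FPKM with H3.2 mRNA and 1.19 FPKM untreated and 25.8 FPKM with H3.2 mRNA and 5.24 FPKM untreated. The untreated library was the lowest of the 5 for each of Tdpoz1, Tdpoz2, Tdpoz4 and Spz1. Zscan4d, a marker of the 2-cell burst, was listed at 0 with H3.2 mRNA, against 3.75 FPKM in untreated embryos. Abundant transcripts of the early embryo were close, with Obox6 at 2504 FPKM with H3.2 mRNA and 3477 FPKM untreated and Ccna2 at 1040.2 FPKM with H3.2 mRNA and 1033 FPKM untreated.

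Oocyte and maternal-effect genes were lower on balance, with 20 of 69 lower (29.0%, against 12.7% of all genes) and 4 higher (5.80%, against 24.1%) and a median of -0.64. That median was -0.20 under upper-quartile scaling and -0.999 after quantile normalization. Mos, the kinase that arrests oocytes in metaphase, stood at 0 FPKM with H3.2 mRNA, 18.2 FPKM with H3.3 mRNA, 43.2 FPKM in the knockdown and 0 FPKM with luciferase, against 289 FPKM in untreated embryos. Zar1, a factor that binds stored maternal mRNA, stood at 18.4 FPKM with H3.2 mRNA, 64.4 FPKM with H3.3 mRNA, 173 FPKM in the knockdown and 5.76 FPKM with luciferase, against 639 FPKM in untreated embryos. Gdf9, an oocyte-secreted growth factor, stood at 177 FPKM with H3.2 mRNA, 330.2 FPKM with H3.3 mRNA, 550.2 FPKM in the knockdown and 81.3 FPKM with luciferase, against 1332 FPKM in untreated embryos. Btg4, an adaptor that directs the deadenylase to maternal mRNA, stood at 200.1 FPKM with H3.2 mRNA, 189 FPKM with H3.3 mRNA, 271 FPKM in the knockdown and 29.2 FPKM with luciferase, against 1389.9 FPKM in untreated embryos. Luciferase embryos were lower still at all 4 genes or, for Mos, equally at 0. Against luciferase the H3.2 mRNA library was 4-fold higher at 32 members of 69 and lower at 1, where 10.4% of all genes were higher and 9.84% lower. At Zar1, Gdf9 and Btg4 the H3.2 mRNA library therefore lay between the controls.

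Not all maternal genes followed. Nlrp14 stood at 142 FPKM with H3.2 mRNA, 32.1 FPKM with H3.3 mRNA, 18.3 FPKM in the knockdown and 43.1 FPKM with luciferase, against 10.8 FPKM in untreated embryos, the zona glycoprotein gene Zp2 at 81.9 FPKM with H3.2 mRNA, against 8.82 FPKM in untreated embryos and the germ cell helicase gene Ddx4 at 44.4 FPKM with H3.2 mRNA, against 2.99 FPKM in untreated embryos. Members of the subcortical maternal complex were spread, with Nlrp5 at 109.7 FPKM with H3.2 mRNA and 101 FPKM untreated, Tle6 at 109 FPKM with H3.2 mRNA and 114 FPKM untreated, Padi6 at 317 FPKM with H3.2 mRNA and 130.2 FPKM untreated and Ooep at 8.2 FPKM with H3.2 mRNA and 146 FPKM untreated. Dppa3, which protects the maternal genome from demethylation, was the most abundant member, with 4818 FPKM with H3.2 mRNA, 8550.2 FPKM with H3.3 mRNA, 19535 FPKM in the knockdown and 10257 FPKM with luciferase, against 13794 FPKM in untreated embryos. The summed level of the list was 12947 FPKM with H3.2 mRNA, against 37102 FPKM in untreated embryos. The oocyte list thus had less summed RNA where many of its members were lower, and the part of a general loss of oocyte RNA in other differences was not tested.

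Interferon response and antigen presentation genes had a median of -1.73, which was -1.30 under upper-quartile scaling and -0.73 without the filter. Members such as Psmb9 passed the filter through the untreated library alone, where they were high. Among the 40 lists as reported, the H3.3 genes and the replication-coupled H3 genes had lower medians. That order depended on the processing. Without the filter the respiratory chain median was -1.09 and the cytosolic ribosomal median -1.07, both below that of the interferon list. Of 25 measured, 12 were lower (48.0%, against 12.7% of all genes) and 4 higher (16.0%, against 24.1%). The lower members covered successive steps of MHC class I presentation, which cuts proteins in the proteasome, moves peptides through the TAP transporter and loads them on class I heavy chains with beta-2 microglobulin. Psmb8, given above, and Psmb9 encode immunoproteasome subunits, and Psmb9 stood at 0 FPKM with H3.2 mRNA, 0 FPKM with H3.3 mRNA, 0 FPKM in the knockdown and 0 FPKM with luciferase, against 71.9 FPKM in untreated embryos. Psmb10, another subunit, stood at 99.4 FPKM with H3.2 mRNA, 115 FPKM with H3.3 mRNA, 325 FPKM in the knockdown and 29 FPKM with luciferase, against 476 FPKM in untreated embryos.

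Tap1, a subunit of the peptide transporter, stood at 25.3 FPKM with H3.2 mRNA, 59.3 FPKM with H3.3 mRNA, 0 FPKM in the knockdown and 30.9 FPKM with luciferase, against 186 FPKM in untreated embryos. Tapbp (tapasin), which bridges TAP and class I, stood at 34 FPKM with H3.2 mRNA, 113 FPKM with H3.3 mRNA, 16.8 FPKM in the knockdown and 41.3 FPKM with luciferase, against 696 FPKM in untreated embryos. The class I heavy chain gene H2-K1 stood at 106 FPKM with H3.2 mRNA, 252 FPKM with H3.3 mRNA, 115 FPKM in the knockdown and 171 FPKM with luciferase, against 964 FPKM in untreated embryos, and H2-D1 at 61.5 FPKM with H3.2 mRNA, 85.4 FPKM with H3.3 mRNA, 189 FPKM in the knockdown and 79.6 FPKM with luciferase, against 521 FPKM in untreated embryos. B2m, their shared light chain, stood at 416 FPKM with H3.2 mRNA, 289 FPKM with H3.3 mRNA, 1213 FPKM in the knockdown and 250.5 FPKM with luciferase, against 1851 FPKM in untreated embryos. The untreated library was the highest of the 5 at all of these genes, and both the H3.2 mRNA and the luciferase library were more than 4-fold below it. The median of the list for luciferase minus untreated was -2.31, and for H3.2 mRNA minus luciferase 0.00.

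Other interferon-linked genes did not all go the same way. Ddx58, the RNA sensor RIG-I, stood at 24.7 FPKM with H3.2 mRNA, 15.2 FPKM with H3.3 mRNA, 0 FPKM in the knockdown and 2.97 FPKM with luciferase, against 1.37 FPKM in untreated embryos. Isg15, a ubiquitin-like interferon-induced gene, stood at 15.7 FPKM with H3.2 mRNA, 31.7 FPKM with H3.3 mRNA, 0 FPKM in the knockdown and 0 FPKM with luciferase, against 0 FPKM in untreated embryos. Irf9, a subunit of the interferon-activated factor ISGF3, stood at 62 FPKM with H3.2 mRNA, against 462 FPKM in untreated embryos, and Ifitm3, a restriction factor of virus entry, was listed at 0 with H3.2 mRNA, against 254 FPKM in untreated embryos.

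Promoters of 3 of these genes are shown because the genes were low together with H3.2 mRNA and differ in exact matches to a motif that answers interferon. Each is the RefSeq window on GRCm38.p6 from 250 bases before to 50 bases after the start, in the direction of transcription, with matches to the core of the interferon-stimulated response element (GAAA repeated in the same direction after 2 free bases) in capitals.
Ifitm3 (chr7:141010695-141010994, minus strand): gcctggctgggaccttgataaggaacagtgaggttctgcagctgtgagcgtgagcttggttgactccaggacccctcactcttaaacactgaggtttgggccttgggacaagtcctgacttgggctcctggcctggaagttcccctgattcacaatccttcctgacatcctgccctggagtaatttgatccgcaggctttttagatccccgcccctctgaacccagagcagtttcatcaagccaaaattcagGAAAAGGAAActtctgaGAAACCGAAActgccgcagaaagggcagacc
B2m (chr2:122147437-122147736, plus strand): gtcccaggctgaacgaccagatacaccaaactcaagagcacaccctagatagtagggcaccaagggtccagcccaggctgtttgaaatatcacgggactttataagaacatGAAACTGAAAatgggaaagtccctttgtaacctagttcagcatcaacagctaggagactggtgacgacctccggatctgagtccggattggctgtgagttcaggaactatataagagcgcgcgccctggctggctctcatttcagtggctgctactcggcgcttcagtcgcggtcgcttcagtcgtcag
Psmb9 (chr17:34187281-34187580, minus strand): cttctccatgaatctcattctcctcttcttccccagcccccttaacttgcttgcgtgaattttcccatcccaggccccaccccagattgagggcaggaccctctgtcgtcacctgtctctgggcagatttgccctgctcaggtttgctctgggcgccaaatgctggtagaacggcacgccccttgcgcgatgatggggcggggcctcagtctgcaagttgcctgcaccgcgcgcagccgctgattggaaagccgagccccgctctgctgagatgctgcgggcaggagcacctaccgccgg
The motif was searched on both strands, as exact letters only. A window without a match can still hold a near or another form of an interferon-responsive element, which was not searched for. Ifitm3 held 2 matches and B2m 1, and the Psmb9 window held none. The windows of Psmb8, Tap1, Tapbp, H2-K1, H2-D1 and Irf9, also low with H3.2 mRNA, held none either. The windows of Psmb9 and Tap1 face in opposite directions and share 275 bases (chr17:34187306-34187580). Of the list, 22 of 25 genes had a window, and 8 of the 22 (36.4%) held the motif, against 3.49% of the 27025 genes in the RefSeq table. This share covers measured members of either direction and not the lower ones alone. The 27025 genes include genes that did not pass the filter. In the oocyte and maternal-effect list 7 of 58 windows (12.1%) held the motif. A match is a description of these letters and does not show binding.

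p53 targets and apoptosis genes were lower on balance, with 9 of 36 lower (25%, against 12.7% of all genes) and 3 higher (8.33%, against 24.1%) and a median of -0.53. That median was -0.098 under upper-quartile scaling and -0.25 after quantile normalization. Pmaip1, which encodes NOXA, a killer of the BCL2 family, stood at 2.05 FPKM with H3.2 mRNA, 0 FPKM with H3.3 mRNA, 0 FPKM in the knockdown and 4.02 FPKM with luciferase, against 71.8 FPKM in untreated embryos. Perp, a p53 target in cell adhesion, stood at 10.7 FPKM with H3.2 mRNA, 46.9 FPKM with H3.3 mRNA, 75.4 FPKM in the knockdown and 265 FPKM with luciferase, against 174 FPKM in untreated embryos. Bik, another death-promoting BCL2 relative, stood at 6.95 FPKM with H3.2 mRNA, 50.7 FPKM with H3.3 mRNA, 0 FPKM in the knockdown and 5.25 FPKM with luciferase, against 112 FPKM in untreated embryos. Pmaip1 was more than 4-fold higher in untreated embryos than in any other library, while Perp was high in both controls. Bad, a further death-promoting member, went against these, with 111 FPKM with H3.2 mRNA, 206 FPKM with H3.3 mRNA, 70 FPKM in the knockdown and 176 FPKM with luciferase, against 4.72 FPKM in untreated embryos. The main p53 output genes differed little, with Cdkn1a at 1629.9 FPKM with H3.2 mRNA and 2319.8 FPKM untreated and Mdm2 at 604 FPKM with H3.2 mRNA and 851 FPKM untreated.

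Respiratory chain, ribosomal protein and proteasome genes had medians below 0 with few members past 4-fold. Of 82 respiratory chain and ATP synthase genes, 67 were below 0, 11 were 4-fold lower (13.4%, against 12.7% of all genes) and 1 was higher (1.22%, against 24.1%), with a median of -1.12. Cox7a1, a muscle-type subunit of cytochrome oxidase, was listed at 0 with H3.2 mRNA, against 198 FPKM in untreated embryos. Cox6b2, its testis-type subunit gene, stood at 20.9 FPKM with H3.2 mRNA and between 33.7 and 215 FPKM in the other 3 libraries, against 450.0 FPKM in untreated embryos. Atp5s, a coupling factor gene, was the higher member, at 21.4 FPKM with H3.2 mRNA and listed at 0 in untreated embryos.

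Of 82 cytosolic ribosomal protein genes, 76 were below 0, though 3 were 4-fold lower (3.66%, against 12.7% of all genes) and 0 higher (against 24.1%), with a median of -1.08. Rpl24 stood at 1113 FPKM with H3.2 mRNA, 2594 FPKM with H3.3 mRNA, 4696 FPKM in the knockdown and 2813 FPKM with luciferase, against 4089 FPKM in untreated embryos. Rpl31 stood at 47.3 FPKM with H3.2 mRNA, 56.5 FPKM with H3.3 mRNA, 171 FPKM in the knockdown and 88.3 FPKM with luciferase, against 307 FPKM in untreated embryos, and Rpl22l1, a paralog of Rpl22, at 54.5 FPKM with H3.2 mRNA, 360.5 FPKM with H3.3 mRNA, 495 FPKM in the knockdown and 187 FPKM with luciferase, against 454 FPKM in untreated embryos. Mitochondrial ribosomal protein genes had a median of -0.64 (56 of 76 below 0) and proteasome genes -0.78 (39 of 45 below 0). Under upper-quartile scaling the cytosolic ribosomal median was -0.65, the respiratory chain median -0.69, the mitochondrial ribosomal median -0.21 and the proteasome median -0.35. After quantile normalization the cytosolic ribosomal median was -0.57, the respiratory chain median -0.77, the mitochondrial ribosomal median -0.085 and the proteasome median -0.11. All genes of 1000 FPKM or more had a median of -0.61, beside -1.08 for the ribosomal list.

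Chromatin remodeller genes were the reverse, with 29 of 36 above 0, 10 higher (27.8%, against 24.1% of all genes) and 0 lower (against 12.7%), and a median of 0.78. Chd1, a remodeller of open chromatin, stood at 188 FPKM with H3.2 mRNA, 207 FPKM with H3.3 mRNA, 44.2 FPKM in the knockdown and 67.7 FPKM with luciferase, against 26.1 FPKM in untreated embryos. Chd7, a remodeller of enhancers, stood at 145 FPKM with H3.2 mRNA, 166 FPKM with H3.3 mRNA, 31.1 FPKM in the knockdown and 74.6 FPKM with luciferase, against 6.06 FPKM in untreated embryos. Chd2, their relative, was listed at 0 in untreated embryos and stood at 25.3 FPKM with H3.2 mRNA. The core ATPase gene Smarca4 differed little, with 412 FPKM with H3.2 mRNA and 478 FPKM untreated. With the trend on transcript length removed, the median of the list was 0.05.

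Histone methyltransferases and demethylases had a median of 0.64, with 9 of 39 higher (23.1%, near the 24.1% of all genes) and 3 lower (7.69%, against 12.7%), and -0.11 with the length trend removed. Whsc1l1, a methyltransferase of the NSD family, stood at 33.9 FPKM with H3.2 mRNA, 19.5 FPKM with H3.3 mRNA, 7.25 FPKM in the knockdown and 15.3 FPKM with luciferase, against 0.43 FPKM in untreated embryos. Kdm5b, which removes H3K4 methylation, stood at 350.2 FPKM with H3.2 mRNA, 389 FPKM with H3.3 mRNA, 87 FPKM in the knockdown and 348 FPKM with luciferase, against 48.7 FPKM in untreated embryos. Carm1, an arginine methyltransferase that acts on H3 in early blastomeres, stood at 31.3 FPKM with H3.2 mRNA, 57.5 FPKM with H3.3 mRNA, 18.8 FPKM in the knockdown and 118 FPKM with luciferase, against 227 FPKM in untreated embryos, and Kdm1b, an oocyte demethylase, at 21.4 FPKM with H3.2 mRNA, against 121 FPKM in untreated embryos. Carm1 was highest in untreated embryos and Kdm5b lowest there. Among DNA methylation genes 6 of 23 were higher (26.1%) and 4 lower (17.4%), against 24.1% and 12.7% of all genes. The de novo methyltransferase gene Dnmt3b stood at 33.9 FPKM with H3.2 mRNA, 117 FPKM with H3.3 mRNA, 25.8 FPKM in the knockdown and 68.6 FPKM with luciferase, against 1.84 FPKM in untreated embryos, and its cofactor gene Dnmt3l at 122 FPKM with H3.2 mRNA, 109.8 FPKM with H3.3 mRNA, 953 FPKM in the knockdown and 407 FPKM with luciferase, against 505 FPKM in untreated embryos. The maintenance enzyme Dnmt1 stood at 240.5 FPKM with H3.2 mRNA, against 90.9 FPKM in untreated embryos.

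Signalling genes of the FGF, BMP and WNT pathways had a median of 0.82, with 11 of 32 higher (34.4%, against 24.1% of all genes) and 4 lower (12.5%, against 12.7%). The median was 0.18 after quantile normalization and 0.35 with the length trend removed. The BMP receptor genes Bmpr1a and Bmpr2 stood at 98.1 FPKM with H3.2 mRNA and 11.2 FPKM untreated and 69.3 FPKM with H3.2 mRNA and 9.13 FPKM untreated, and the WNT co-receptor gene Lrp6 at 42.6 FPKM with H3.2 mRNA, against 4.09 FPKM in untreated embryos. Members of the Id family, inhibitors of bHLH factors that answer BMP signals, went both ways. Id3 stood at 29.6 FPKM with H3.2 mRNA, 227 FPKM with H3.3 mRNA, 87.8 FPKM in the knockdown and 1576 FPKM with luciferase, against 978 FPKM in untreated embryos. Id1 stood at 3.73 FPKM with H3.2 mRNA, 28.4 FPKM with H3.3 mRNA, 30.9 FPKM in the knockdown and 70.4 FPKM with luciferase, against 33.4 FPKM in untreated embryos. Id4 was higher, with 13.3 FPKM with H3.2 mRNA, 0 FPKM with H3.3 mRNA, 0 FPKM in the knockdown and 1.23 FPKM with luciferase, against 0 FPKM in untreated embryos, as was Id2 given above. Id3 was highest in the controls and lower in all 3 knockdown libraries. Nodal, the TGF-beta family ligand of the epiblast, stood at 7.45 FPKM with H3.2 mRNA, 0 FPKM with H3.3 mRNA, 0 FPKM in the knockdown and 0 FPKM with luciferase, against 35.3 FPKM in untreated embryos.

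Stress and early response genes were mixed. Of 47 heat shock and unfolded protein response genes, 9 were higher (19.1%, against 24.1% of all genes) and 5 lower (10.6%, against 12.7%). Atf3, a factor of the integrated stress response, stood at 41.8 FPKM with H3.2 mRNA, 28.4 FPKM with H3.3 mRNA, 0 FPKM in the knockdown and 15.7 FPKM with luciferase, against 0 FPKM in untreated embryos. Atf5, another such factor, stood at 137 FPKM with H3.2 mRNA, 221 FPKM with H3.3 mRNA, 153 FPKM in the knockdown and 21.6 FPKM with luciferase, against 3.84 FPKM in untreated embryos. Cryab, a small heat shock protein gene, was listed at 0 in all 3 knockdown libraries, against 238 FPKM with luciferase and 179 FPKM in untreated embryos. Of 19 AP-1 and immediate early genes, 7 were higher (36.8%, against 24.1% of all genes) and 5 lower (26.3%, against 12.7%). Jun stood at 22.1 FPKM with H3.2 mRNA and between 6.38 and 22.6 FPKM in the other 3 libraries, against 0 FPKM in untreated embryos, and Fosl1, another AP-1 subunit, at 3.44 FPKM with H3.2 mRNA, 236 FPKM with H3.3 mRNA, 2.76 FPKM in the knockdown and 1.63 FPKM with luciferase, against 171 FPKM in untreated embryos. Batf3 was listed at 0 with H3.2 mRNA, against 195 FPKM in untreated embryos.

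**Figure D5:**
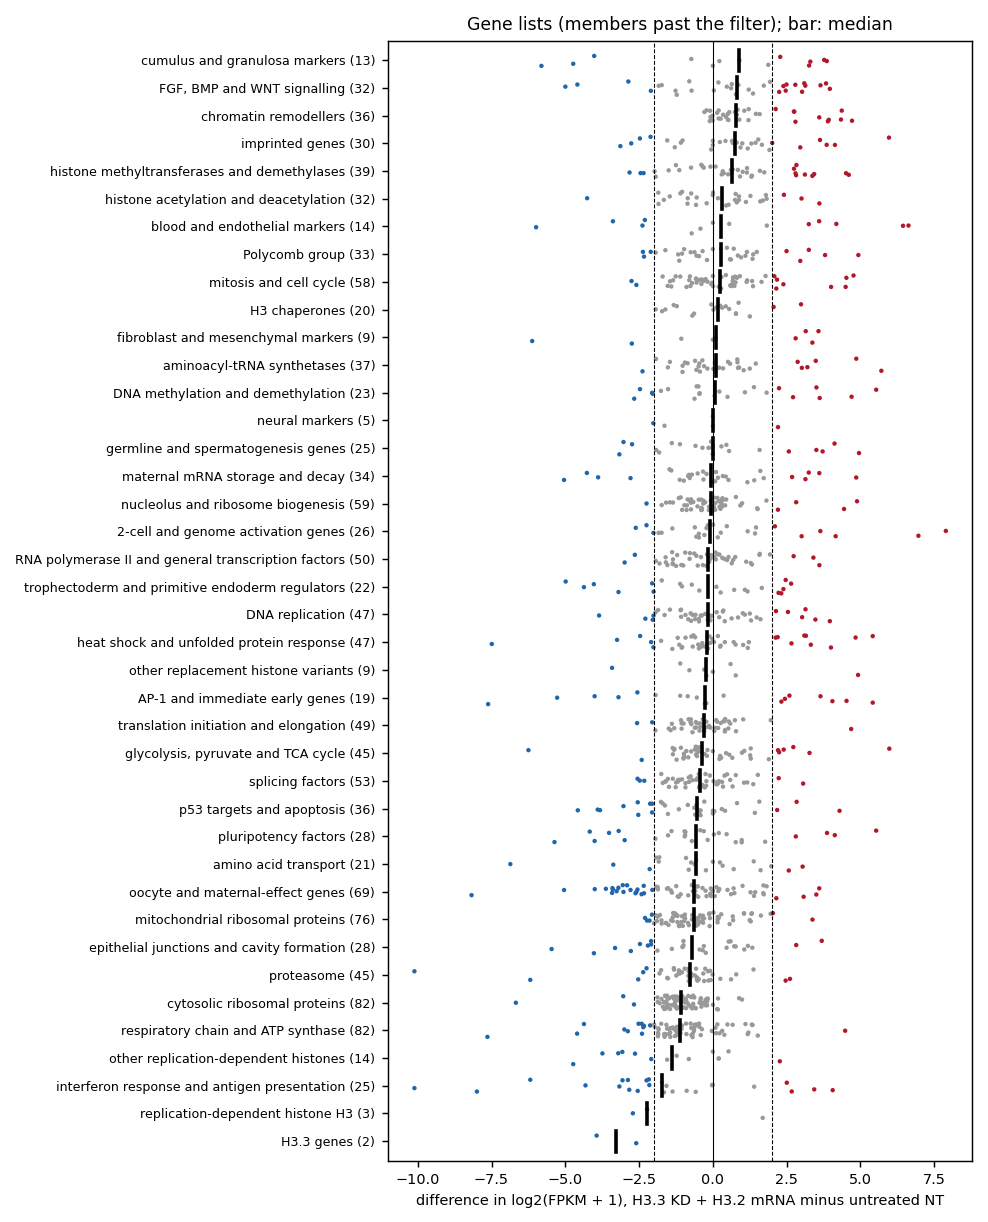
Difference of each gene past the filter, log2(FPKM + 1) with H3.3 KD + H3.2 mRNA minus untreated NT, for the members of 40 gene lists ordered by median (black bar), with the number of members in brackets. Red and blue points lie past 4-fold (dashed lines), and the medians run from 0.90 for cumulus and granulosa markers to -3.27 for both H3.3 genes.

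Imprinted genes had a median of 0.74, with 6 of 30 higher (20%, against 24.1% of all genes) and 4 lower (13.3%, near the 12.7% of all genes). Commd1 stood at 61.6 FPKM with H3.2 mRNA and between 14 and 97.3 FPKM in the other 3 libraries, against 0 FPKM in untreated embryos. Nnat, the neuronatin gene, stood at 16.6 FPKM with H3.2 mRNA, 9.61 FPKM with H3.3 mRNA, 0 FPKM in the knockdown and 108 FPKM with luciferase, against 0 FPKM in untreated embryos, and Meg3, a maternally expressed noncoding RNA, at 13.5 FPKM with H3.2 mRNA, 91 FPKM with H3.3 mRNA, 0 FPKM in the knockdown and 29.4 FPKM with luciferase, against 0 FPKM in untreated embryos. Cd81, a tetraspanin gene, went the other way, with 204 FPKM with H3.2 mRNA, 252 FPKM with H3.3 mRNA, 388 FPKM in the knockdown and 211 FPKM with luciferase, against 1395 FPKM in untreated embryos. The list median was -0.03 with the length trend removed.

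Abundant early embryo transcripts such as Dppa3, Fbxo15 and Obox6 were at 2504 FPKM or more in both compared libraries. Dppa3 is also a member of the oocyte list, so these levels cannot tell the labelled stage from an earlier one. Markers of fibroblast, cumulus, blood and neural cells were mostly listed at 0, with single markers well above it, while germline genes were not. Of all 22026 genes listed, 9765 were at 0 with H3.2 mRNA and 11583 in untreated embryos. Of 29 fibroblast and mesenchymal markers, 21 were listed at 0 with H3.2 mRNA, against 24 in untreated embryos, with sums of 97.3 FPKM and, in untreated embryos, 278 FPKM. Col1a1, Col1a2, Col3a1 and Thy1 were at 0 in both. The filter was passed by 9 fibroblast and mesenchymal markers. Of these, 4 were 4-fold higher (44.4%, against 24.1% of all genes) and 2 lower (22.2%, against 12.7%). The higher ones included Loxl1, Snai2 and Fn1, with Fn1 at 15.13 FPKM with H3.2 mRNA and 0.82 FPKM untreated. Among the lower, Vim (vimentin) was listed at 0 with H3.2 mRNA, against 68.7 FPKM in untreated embryos. Of 29 cumulus and granulosa markers, 16 were at 0 with H3.2 mRNA, against 22 in untreated embryos, with sums of 844 FPKM and, in untreated embryos, 979.8 FPKM. Amhr2 made up most of that sum with H3.2 mRNA (527 FPKM), and Fshr, Amh and Cyp11a1 were at 0 in both. Of 32 blood and endothelial markers, 20 were at 0 with H3.2 mRNA, against 25 in untreated embryos, with sums of 1216 FPKM and, in untreated embryos, 976 FPKM, and Ptprc, Kdr and the beta-globin genes were at 0 in both. Of 19 neural markers, 14 were at 0 with H3.2 mRNA, against 16 in untreated embryos, with sums of 127 FPKM and, in untreated embryos, 387 FPKM. Of 34 germline and spermatogenesis genes, 16 were at 0 in each, with sums of 604 FPKM and, in untreated embryos, 1135 FPKM. The part of other cells in the differences was not tested.

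Transcript length also went with the difference. By the longest GENCODE transcript of each gene, known for 98.8% of the genes, the 20% of genes with the shortest transcripts (up to 1816 bases) had a median difference of -0.36. The 20% with the longest (5013 bases and up) had a median of 0.92. Among the shortest 19.6% of genes were higher and 18.7% lower, and among the longest 32% were higher and 7.40% lower. Spearman's rho of length with the difference was 0.19 over 12992 genes and 0.25 over the 6471 with a mean of 50 FPKM or more, as a description across genes, which share the 2 libraries. The median difference of luciferase minus untreated was 0.54 among the longest. The median transcript was 1100 bases for cytosolic ribosomal protein genes and 1135 for respiratory chain genes, and 6150.5 bases for chromatin remodellers. With the length trend removed the ribosomal median was -0.86 and the respiratory chain median -0.93.

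By chromosome, the share of higher genes ran from 18.6% on chromosome 15 to 30.1% on chromosome 6, and the share of lower genes from 7.82% on chromosome 16 to 17% on chromosome 15. Genes of the X chromosome lay near the whole, with 24.7% higher and 14.0% lower of 458.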

How the data were processed

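RNA was measured by RNA-seq in 5 libraries of embryos at the 4-cell stage, 1 library per group. Per the labels' protocols the libraries were Illumina TruSeq libraries read as single reads of 51 bases. The deposited values are FPKM per gene symbol (22026 symbols). The submitters' processing notes name TopHat, Cufflinks and the genome build mm9, with no versions, roles or order. The authors' filters and annotation are not stated in any source at hand. The read depth is unknown: no steps of 1 read were found among 1229 genes under 20 FPKM (the fullest bin of 0.1 on the log2 scale held 2.85% of them), so no interval or detection limit could be given, and a 0 can be an estimate that failed.

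From the deposited FPKM, log2(FPKM + 1) was computed, genes with a mean of 1 FPKM or more over the 5 libraries were kept, and the difference H3.3 KD + H3.2 mRNA minus untreated NT was called at 4-fold. No p-value, standard deviation or test is given. Lists (40, with 1595 of 1619 entries in the files) and the comparison were chosen with earlier results of these data known. Named genes are the 12 highest and 12 lowest differences among genes above 0 in both libraries, 6 at 0 in each library, 5 in each direction among genes with a mean of 1000 FPKM or more, up to 4 largest differences per described list, and the H3.3 and H3 chaperone genes. Clone and model names and small RNA genes were left out, and a few genes of these ranks are not reported here. Other genes were named after their values were seen. Alternatives changed the pseudocount, the filter, the treatment of 0, the scaling, the fold and the length trend. Transcript lengths came from GENCODE vM21 (98.8% of genes matched by symbol), and chromosomes (99.2%) and promoter windows from RefSeq GRCm38.p6, another build than that of the files. Genes with close copies, among them ribosomal protein, histone, Tdpoz and Usp17l5 genes, are uncertain, since reads may be split between copies. Python 3.11.15 with pandas 2.3.3, NumPy 2.4.6, SciPy 1.17.1 and matplotlib 3.10.9 was used.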

Additional observations from a re-analysis of the deposited data

How the results depend on the processing

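The counts of genes past the fold, 3170 higher, 1672 lower and 4842 in either direction as reported, depended on weakly expressed genes and on the fold. With a pseudocount of 10 they were 1108, 1018 and 2126, and with a filter at a mean of 50 FPKM 726, 743 and 1469, where lower genes were the more frequent. Among genes above 0 in both libraries 1362 were higher and 2580 changed in either direction, and among those above 0 in all 5 the counts were 1173, 923 and 2096. At 2-fold 3383 genes were lower and 7906 changed in either direction, and at 8-fold the counts were 2026, 822 and 2848. The remaining alternatives kept all 3 counts within 1.5 times. Against luciferase embryos the count in either direction ran from 450 to 5637 over the alternatives. The share of higher genes among the calls was 74.1% under upper-quartile scaling, against 65.5% as reported. The median of the cumulus and granulosa markers, 0.90 as reported, was -2.38 with a filter at a mean of 5 FPKM and also with genes above 0 in both libraries. With the length trend removed, the median of the imprinted genes was -0.027 and that of the histone methyltransferases and demethylases -0.11. The cause was not tested. Of 208 named genes 181 were past 4-fold. Over the alternatives 2507 values of the named genes kept their side of the fold, 107 fell short of it and 25 newly passed it. Of the 181 genes past 4-fold, 0 changed sign. Changes of sign among named genes short of 4-fold were not counted. No paired analysis was possible because each group had 1 library and the results come from no test. The libraries could not be left out in turn for the same reason, and the unknown depth limits what a value of 0 means.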

Other observations

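Of 58 mitosis and cell cycle genes, 8 were at least 4-fold higher (13.8%, against 24.1% of all genes) and 2 lower (3.45%, against 12.7%). Wee1, the kinase that restrains entry into mitosis, stood at 61.4 FPKM with H3.2 mRNA, 24.8 FPKM with H3.3 mRNA, 1.83 FPKM in the knockdown and 52.9 FPKM with luciferase, against 1.71 FPKM in untreated embryos. Ttk, a spindle checkpoint kinase, stood at 312 FPKM with H3.2 mRNA, 194 FPKM with H3.3 mRNA, 40.2 FPKM in the knockdown and 115 FPKM with luciferase, against 18.5 FPKM in untreated embryos. Cenpf, a kinetochore protein gene, stood at 54.2 FPKM with H3.2 mRNA, 17.4 FPKM with H3.3 mRNA, 7.67 FPKM in the knockdown and 13.5 FPKM with luciferase, against 1.44 FPKM in untreated embryos, and Ccnd1 (cyclin D1) at 26.2 FPKM with H3.2 mRNA, 19.4 FPKM with H3.3 mRNA, 24.6 FPKM in the knockdown and 35.4 FPKM with luciferase, against 0 FPKM in untreated embryos. At these 4 genes the untreated library was the lowest of the 5. Of 47 DNA replication genes 6 were higher (12.8%) and 4 lower (8.51%), both below the shares of all genes. Rfc4, a subunit of the clamp loader, stood at 251 FPKM with H3.2 mRNA, 192 FPKM with H3.3 mRNA, 147 FPKM in the knockdown and 433 FPKM with luciferase, against 15.2 FPKM in untreated embryos, and Pole, the leading-strand polymerase gene, at 91.4 FPKM with H3.2 mRNA, 49.6 FPKM with H3.3 mRNA, 8.79 FPKM in the knockdown and 69.3 FPKM with luciferase, against 7.31 FPKM in untreated embryos. Gins2, a subunit of the replicative helicase, went the other way, with 25.8 FPKM with H3.2 mRNA, 27.2 FPKM with H3.3 mRNA, 76.3 FPKM in the knockdown and 78.5 FPKM with luciferase, against 388 FPKM in untreated embryos.

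Of 37 aminoacyl-tRNA synthetase genes, 6 were higher (16.2%, against 24.1% of all genes) and 1 lower (2.70%, against 12.7%), and members with large differences were Sars2, given above, with Mars2 (102 FPKM with H3.2 mRNA, against 2.53 FPKM in untreated embryos) and Vars2 (8.22 FPKM with H3.2 mRNA, against 0 FPKM in untreated embryos), each a mitochondrial enzyme. Among 76 mitochondrial ribosomal protein genes, Mrps2 stood at 384 FPKM with H3.2 mRNA, 201 FPKM with H3.3 mRNA, 279 FPKM in the knockdown and 338 FPKM with luciferase, against 36.1 FPKM in untreated embryos, while Mrps33, Mrps14 and Mrpl11 were lower. Of 59 nucleolus and ribosome biogenesis genes, 4 were higher (6.78%) and 1 lower (1.69%), against 24.1% and 12.7% of all genes. Utp20, a processome subunit gene, stood at 269 FPKM with H3.2 mRNA, 195 FPKM with H3.3 mRNA, 24 FPKM in the knockdown and 175 FPKM with luciferase, against 8.12 FPKM in untreated embryos, and Heatr1, another, at 459 FPKM with H3.2 mRNA, 351 FPKM with H3.3 mRNA, 108 FPKM in the knockdown and 465 FPKM with luciferase, against 63.8 FPKM in untreated embryos. In the general transcription machinery the TFIID subunit genes Taf3 and Taf4b stood at 67.9 FPKM with H3.2 mRNA and 4.64 FPKM untreated and at 239 FPKM with H3.2 mRNA and 21.7 FPKM untreated, and Gtf2a2, a TFIIA subunit gene, at 158 FPKM with H3.2 mRNA, 400.3 FPKM with H3.3 mRNA, 457 FPKM in the knockdown and 329 FPKM with luciferase, against 1263 FPKM in untreated embryos. Of 33 Polycomb genes 5 were higher (15.2%, against 24.1% of all genes) and 3 lower (9.09%, against 12.7%), and Ezh1, a methyltransferase that places the Polycomb mark, stood at 127 FPKM with H3.2 mRNA, 107 FPKM with H3.3 mRNA, 9.54 FPKM in the knockdown and 94.2 FPKM with luciferase, against 15.4 FPKM in untreated embryos.

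Metabolic genes past 4-fold included single paralogs. Eno3, the muscle-type enolase, stood at 62.1 FPKM with H3.2 mRNA, 0 FPKM with H3.3 mRNA, 0 FPKM in the knockdown and 14.5 FPKM with luciferase, against 0 FPKM in untreated embryos. Pdk2, a kinase that restrains pyruvate dehydrogenase, stood at 0 FPKM with H3.2 mRNA, 0 FPKM with H3.3 mRNA, 0 FPKM in the knockdown and 0 FPKM with luciferase, against 75.1 FPKM in untreated embryos. Idh2, the mitochondrial isocitrate dehydrogenase, stood at 229.8 FPKM with H3.2 mRNA, 145 FPKM with H3.3 mRNA, 378 FPKM in the knockdown and 1186 FPKM with luciferase, against 33.9 FPKM in untreated embryos. Slc7a3, a carrier of cationic amino acids, was listed at 0 with H3.2 mRNA, against 115 FPKM in untreated embryos. Slc38a2, a carrier of neutral amino acids, stood at 87.6 FPKM with H3.2 mRNA, 63.4 FPKM with H3.3 mRNA, 18.8 FPKM in the knockdown and 37.4 FPKM with luciferase, against 13.9 FPKM in untreated embryos.

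Some markers of other cell types were above 0 in 1 or several libraries. Of 13 cumulus and granulosa markers past the filter, 5 were 4-fold higher (38.5%, against 24.1% of all genes) and 3 lower (23.1%, against 12.7%). Among the lower, Tnfaip6 stood at 10.4 FPKM with H3.2 mRNA, 30.8 FPKM with H3.3 mRNA, 0 FPKM in the knockdown and 0 FPKM with luciferase, against 185 FPKM in untreated embryos, and Npr2 at 2.02 FPKM with H3.2 mRNA, 18.5 FPKM with H3.3 mRNA, 0 FPKM in the knockdown and 10.4 FPKM with luciferase, against 168 FPKM in untreated embryos. Slc38a3 went the other way, at 13.5 FPKM with H3.2 mRNA, against 0 FPKM in untreated embryos. Among blood markers, Cd68 stood at 98.1 FPKM with H3.2 mRNA, 78.9 FPKM with H3.3 mRNA, 148 FPKM in the knockdown and 18.2 FPKM with luciferase, against 0 FPKM in untreated embryos, and Nfe2 at 4.2 FPKM with H3.2 mRNA, 0 FPKM with H3.3 mRNA, 0 FPKM in the knockdown and 17.7 FPKM with luciferase, against 329 FPKM in untreated embryos.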
